A study of Mus musculus with 5 samples.

Results

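The regions described here are the SOX11 and SOX4 peaks at 10 genes of the SOX family other than *Sox4* and *Sox11*: *Sox2*, *Sox5*, *Sox6*, *Sox7*, *Sox9*, *Sox12*, *Sox13*, *Sox15*, *Sox18* and *Sox21*. A peak was taken when its centre lay in the body of one of these genes or within 10 kb of it, or when the nearest transcription start of any protein-coding gene was one of theirs. This gave 33 out of 21270 peaks in the SOX11 list and 3 out of 2669 in the SOX4 list. Each peak belonged to 1 of the 10 genes. ChIP-seq was done on primary keratinocytes of newborn mice (dcKO) with *Krt14-Cre* and the alleles *Sox11 fl/fl* and *Sox4 fl/fl*, in which Cre driven by the *Krt14* promoter deletes the floxed genes in basal epidermal cells. The labels give the background as mixed 129SvEx:C57BL/6, which by the study's methods is that of the floxed stock, a stock that also carried *Sox12 -/-*, and the *Krt14-Cre* mice crossed to it were FVB/N. The labels do not give the *Sox12* genotype of the cells. The cells were transduced with a doxycycline-inducible lentivirus for FLAG-tagged SOX4 or SOX11, treated with doxycycline about a day before fixation, and the tagged factor was precipitated with an antibody to FLAG. There were 2 replicates for each factor, and the authors deposited 1 list of peaks made from both, so a peak has no spread between replicates. The 1 control library, an input by its title and IgG by its antibody field, was not used here. The lists give only the place of each peak and its position in the list, which is not in genomic order, and almost all SOX11 peaks are 258 bp wide and SOX4 peaks 340 bp. Neither the height of a peak nor the depth of a library is known. The peaks are those of the introduced, tagged proteins at the level the lentivirus gave. The lists hold no expression values, so the keratinocyte label was not checked against markers and the expression of the 10 genes was not analysed here.

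SOX proteins share an HMG box, a DNA-binding domain that contacts the minor groove and bends the DNA at short sites related to CTTTGT. The family is divided into groups by sequence. SOX11, SOX4 and SOX12 form group C, SOX2 belongs to B1, SOX21 to B2, SOX5, SOX6 and SOX13 to D, SOX9 to E, SOX7 and SOX18 to F, and SOX15 to G. In skin, SOX9 is known for its role in hair follicle stem cells, SOX2 marks dermal papillae and Merkel cells, SOX21 acts in the hair shaft cuticle, and loss of SOX18 function impairs vessels and hair. SOX11 and SOX4 themselves are best known for neuronal differentiation and, in the embryo, for the growth and survival of progenitor cells.

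The SOX core was searched as CTTTGT or CATTGT on both strands, where the other strand reads ACAAAG or ACAATG. Of the 10 genes, 7 had a SOX11 peak that held it. The share of all gene names with such a peak was not counted, so nothing is read from this number. The sequences of the earliest-listed such peak of each gene, and of the peak in the *Sox5* promoter, are shown because they give the core in its local context. They are from the plus strand of mm9, 5′ to 3′, from 25 bases before the first core of the peak to 25 bases after the last or to the end of the peak, with the cores in capitals, and peaks are named by their position in the SOX11 list.
Sox2, peak 13502 (chr3:34310647-34310702): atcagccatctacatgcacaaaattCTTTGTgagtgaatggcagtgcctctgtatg
Sox12, peak 659 (chr2:152211263-152211378): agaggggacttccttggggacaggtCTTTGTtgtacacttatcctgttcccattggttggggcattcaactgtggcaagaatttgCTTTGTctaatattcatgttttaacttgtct
Sox5, peak 4461 (chr6:144619248-144619447): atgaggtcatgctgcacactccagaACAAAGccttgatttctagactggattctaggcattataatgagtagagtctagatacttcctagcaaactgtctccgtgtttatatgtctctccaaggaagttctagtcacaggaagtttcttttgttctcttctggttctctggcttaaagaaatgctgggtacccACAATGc
Sox5 promoter, peak 13335 (chr6:144730657-144730760): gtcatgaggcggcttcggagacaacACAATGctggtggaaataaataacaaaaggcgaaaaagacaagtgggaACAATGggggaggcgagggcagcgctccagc
Sox6, peak 18662 (chr7:122877879-122877980): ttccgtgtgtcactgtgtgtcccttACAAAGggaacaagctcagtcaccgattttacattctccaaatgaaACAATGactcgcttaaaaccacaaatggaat
Sox13, peak 6649 (chr1:135390074-135390173): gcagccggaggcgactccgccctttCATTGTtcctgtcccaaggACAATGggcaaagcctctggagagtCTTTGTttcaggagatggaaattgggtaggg
Sox9, peak 2017 (chr11:112482844-112482899): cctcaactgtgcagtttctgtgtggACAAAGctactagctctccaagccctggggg
Sox7, peak 13211 (chr14:64560118-64560173): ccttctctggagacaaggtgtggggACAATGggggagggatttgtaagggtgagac
The *Sox13* region has 3 cores in alternating orientation, with 13 and 19 bp between neighbours, and the *Sox12* region has 2 cores in the same orientation with 54 bp between them. The *Sox5* promoter has 2 cores of the form ACAATG with 42 bp between them.

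Each of the 3 SOX4 peaks held a SOX core, as did 80.6% of all SOX4 peaks and 41.2% of sequences of the same width shifted 2 kb downstream of them. At *Sox5* it is the core ACAAAG near the start of the sequence shown for peak 4461, 15 bp from the centre of the SOX4 peak. The cores at *Sox9* and *Sox2* lie outside the SOX11 peaks next to them, and are shown from SOX4 peaks 975 and 2474 with the same 25 bases to each side.
Sox9, SOX4 peak 975 (chr11:112967131-112967186): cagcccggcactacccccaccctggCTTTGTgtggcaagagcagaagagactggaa
Sox2, SOX4 peak 2474 (chr3:34724539-34724698): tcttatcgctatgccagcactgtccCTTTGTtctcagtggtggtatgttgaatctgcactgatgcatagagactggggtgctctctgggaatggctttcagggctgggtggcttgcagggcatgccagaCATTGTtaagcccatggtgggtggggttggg
At *Sox9* the core lay 128 bp from the centre of the SOX4 peak, in the stretch that the SOX11 peak does not cover. At *Sox2* the cores lay 23 and 81 bp from the centre.

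The count of peaks differed widely between the 10 genes. Of the SOX11 peaks, *Sox2* had 8, *Sox9* 7, *Sox5* 6 and *Sox15* 3. *Sox7*, *Sox12* and *Sox13* had 2 each, and *Sox6*, *Sox18* and *Sox21* had 1 each. SOX4 peaks were listed at *Sox2*, *Sox5* and *Sox9*, with 1 each, the genes with the most SOX11 peaks. By the same rule 57.0% of the 22238 protein-coding gene names had a SOX11 peak and 13.0% had a SOX4 peak. That all 10 genes have a SOX11 peak is not read against this share, since the genes were chosen with the lists known. Of all 17 annotated family genes besides *Sox4* and *Sox11*, 13 had a SOX11 peak, which is 76.5% with an exact 95% binomial interval of 50.1 to 93.2%, and 3 had a SOX4 peak, which is 17.6% with an interval of 3.80 to 43.4%. Both intervals include the shares of all genes. Intervals of shares in this text are exact (Clopper-Pearson) and those of densities are Poisson intervals, all at 95%, and they cover counting error only, because peaks and genes of 1 list are not replicates.

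**Figure D1:**
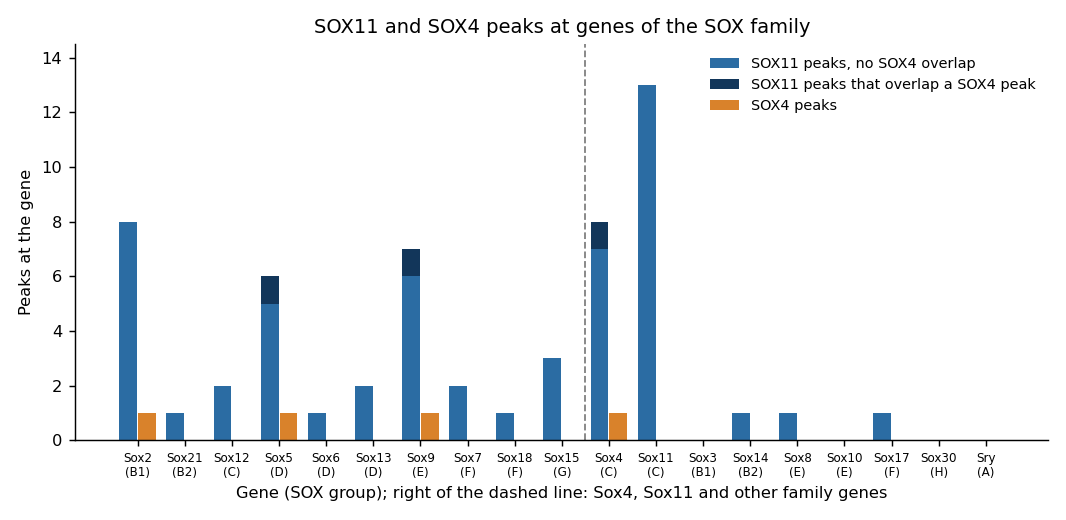
Number of SOX11 peaks and SOX4 peaks (y axis) at each annotated gene of the SOX family (x axis, with its group), with the 10 genes left of the dashed line and SOX11 peaks that overlap a SOX4 peak in dark blue. The bars reach 8 for Sox2, 7 for Sox9 and 6 for Sox5, and SOX4 peaks are seen at these 3 of the 10 genes.

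The 7 other annotated family genes were the group B1 gene *Sox3*, the B2 gene *Sox14*, *Sox8* and *Sox10* of group E, *Sox17* of group F, *Sox30* and *Sry*. *Sox8*, *Sox14* and *Sox17* had 1 SOX11 peak each, at positions 17930, 21074 and 11212 of the list, and the other 4 had none. None of these 7 genes had a SOX4 peak. *Sox1* is not in the annotation used here. *Sox4* and *Sox11* themselves had 8 and 13 SOX11 peaks, and *Sox4* had 1 SOX4 peak, 257 kb upstream of its start, that overlaps SOX11 peak 3361. Of the SOX11 peaks, 2 lay in the exon of *Sox11*, at positions 933 and 964, and 1 in the exon of *Sox4*, at position 3954. Both genes are floxed in these cells and are meant to be deleted by Cre, and whether their exons remained was not tested. The cells of the SOX11 list also carry a *Sox11* coding sequence on the lentivirus, and its part in the peaks at *Sox11* was not tested.

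The rule joins 2 kinds of nearness, and the genes divide between them. Of the 33 SOX11 peaks, 15 lay in a gene body or within 10 kb, and 18 were taken only because the gene had the nearest start. *Sox2* and *Sox9* had none of their peaks in the gene or within 10 kb, and all their SOX11 peaks lay over 100 kb from the start, as did 3 of the 6 at *Sox5*. Over all members this makes 18 of 33 peaks, or 54.5% (interval 36.4 to 71.9%), against 11.7% of all SOX11 peaks. The median distance to the nearest protein-coding start was 121 kb, against 11.5 kb for all SOX11 peaks. *Sox2*, *Sox9* and *Sox5* stand in wide stretches without other protein-coding starts, and the rule gives a gene more distant peaks where its neighbours are far away. The parts of the rule and of these stretches in the distances were not tested, so the distances are a description and not a finding. Within the gene body or 10 kb alone, 8 of the 10 genes had a SOX11 peak, where 50.8% of all gene names did, and 1 of the 10, *Sox5*, had a SOX4 peak, where 10.2% did. Among all 17 family genes these counts were 9, or 52.9% (interval 27.8 to 77.0%), and 1, or 5.88% (interval 0.149 to 28.7%).

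**Figure D2:**
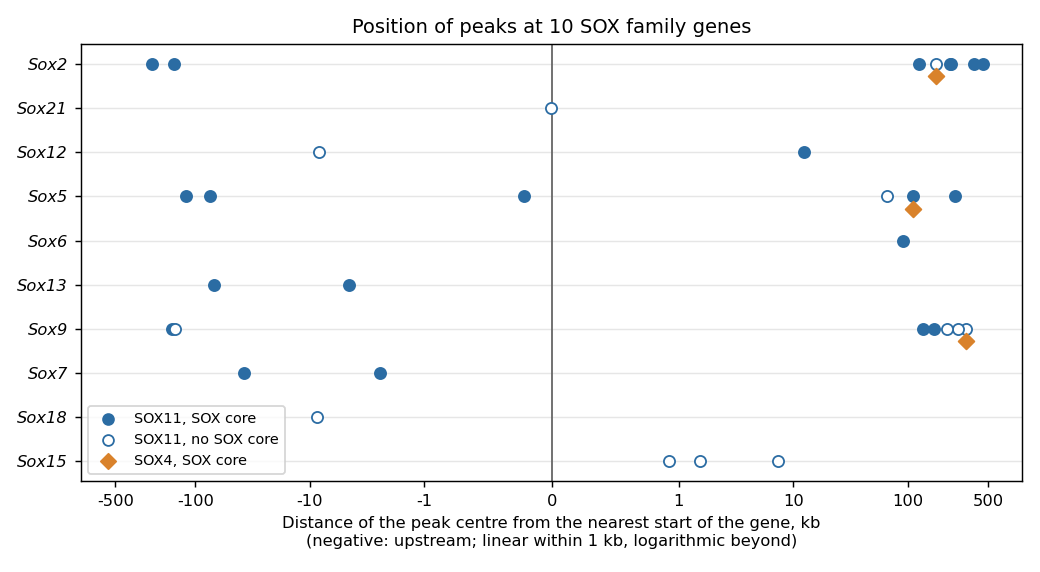
Distance of each peak centre from the nearest start of its gene, in kb (x axis, linear within 1 kb and logarithmic beyond, negative upstream), for the 10 genes (y axis). Circles are SOX11 peaks, filled where a SOX core was found, and diamonds are SOX4 peaks; the peaks of Sox2 and Sox9 all lie more than 100 kb away, while that of Sox21 lies 4 bp from the start, and circles overlap where peaks are close together.

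To set the counts against the space around each gene, a territory was drawn from midpoint to midpoint between its starts and the next protein-coding starts on each side. The SOX11 list holds 8.06 peaks per Mb of chromosomes 1 to 19 and X, and the SOX4 list 1.01 per Mb. The *Sox2* territory, 836 kb wide, had 9.56 SOX11 peaks per Mb, with a Poisson interval of 4.13 to 18.8. The *Sox9* territory, 568 kb wide, had 12.3 per Mb (interval 4.95 to 25.4), and the *Sox5* territory, 1350 kb wide, had 4.44 per Mb (interval 1.63 to 9.67). Each of these intervals includes the density over the genome. With the starts of protein-coding transcripts only, an alternative chosen after seeing the data, the *Sox5* territory was 1064 kb wide with 2 peaks, and its density was 1.88 per Mb (interval 0.228 to 6.79, which leaves out the density over the genome), while the values of *Sox2* and *Sox9* were the same. For the count itself, 1.25% of all gene names had at least 8 SOX11 peaks, as *Sox2* had, and 1.88% had at least the 7 of *Sox9*. The *Sox6* territory, 685 kb wide, held 1 peak, or 1.46 per Mb, with an interval of 0.0369 to 8.13, which includes the density over the genome. Of the other territories, those of *Sox7*, *Sox12*, *Sox13* and *Sox21* measured 19.2 to 141 kb and held 1 or 2 peaks each. The *Sox15* territory measured only 2.97 kb with 1 peak, or 337 per Mb (interval 8.54 to 1879), and the *Sox18* territory, 39.5 kb wide, held none. With the starts of protein-coding transcripts only, the *Sox15* territory was 14.8 kb wide with 2 peaks, or 135 per Mb (interval 16.4 to 489). Both *Sox15* intervals leave out the density over the genome, but in the territory of 2.97 kb a single peak is enough for that. All 10 genes were chosen with their peaks known, so their densities are descriptions, whether or not an interval includes that of the genome. In windows of 500 kb to each side of the outermost start of the gene, at its 5′ end, the order differed from that of the counts: *Sox15* had 27 SOX11 peaks, *Sox13* 23, *Sox12* 20, *Sox7* 19 and *Sox18* 16, while *Sox2* and *Sox5* had 8 each and *Sox21* 7. *Sox9* had 12 and *Sox6* 9. The genes with few peaks of their own thus included those in regions with many peaks, which went to other genes under the rule. The pair of counts that *Sox2* had, 8 SOX11 peaks and 1 SOX4 peak, was shared by 32 other gene names, *Sox4* among them, that of *Sox9* by 50 and that of *Sox5* by 74. No member had a pair of counts of its own.

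*Sox2*, the group B1 gene, encodes a factor of pluripotent cells and neural progenitors. It is annotated on chromosome 3 from 34548927 to 34551383 on the plus strand of mm9. Its SOX11 peaks lay on both sides, 2 upstream at 154 and 238 kb, inside the long non-coding gene *Sox2ot*, and 6 downstream between 124 and 453 kb. A pair of the downstream peaks, 17797 (34784092 to 34784349) and 15779 (34785162 to 34785419), is separated by 812 bp. The outermost peak, 15379, lay from 35002178 to 35002435 and held 2 SOX cores. All 8 peaks were late in the SOX11 list, from position 13502 to 20558. The SOX4 peak, from 34724420 to 34724759, was number 2474 of the SOX4 list and lay 176 kb downstream of the start. It did not overlap a SOX11 peak, but the gap to SOX11 peak 15978 was 192 bp. Of all SOX4 peaks, 94.5% overlapped a SOX11 peak, and so did 2 of the 3 here. A SOX core was found in 6 of the 8 SOX11 peaks, and in peaks 13502, 18792, 15379, 20557 and 20558 a core lay within 14 bp of the centre. The peaks at *Sox2* had between 1 and 9 CpG, and none was in a promoter or exon of a protein-coding gene.

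*Sox21*, of group B2, encodes a repressor that acts in neural progenitors and the hair shaft. It is annotated on chromosome 14 from 118632454 to 118636252 on the minus strand and had a single SOX11 peak, on chromosome 14 from 118636127 to 118636384. The centre of this peak lay 4 bp from the outermost annotated start, and also inside the long non-coding gene *Gm4675*. The peak was number 18092 of the list, 65.5% of its bases were G or C, and it held 20 CpG but no SOX, AP-1 or TEAD core. *Sox12*, the remaining member of group C, is annotated on chromosome 2 from 152219347 to 152223782 on the minus strand and had 2 SOX11 peaks, 1 on each side of the gene. The peak downstream of it, on chromosome 2 from 152211188 to 152211445, was number 659 of the list and the earliest of the 33. Its nearest start was that of *Nrsn2*, at 8.94 kb, against 12.5 kb to the start of *Sox12*, so it was taken for lying within 10 kb of the gene body. It held no CpG and 2 SOX cores, 26 and 34 bp from its centre, and the nearest SOX4 peak was 434641 bp away. The other *Sox12* peak, number 10223, lay 8.30 kb upstream and had none of the 3 cores.

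The group D genes *Sox5*, *Sox6* and *Sox13* encode SOX proteins with a coiled-coil domain and no known activation domain, of which SOX5 and SOX6 act with SOX9 in cartilage. Together they had 9 SOX11 peaks, 8 of them with a SOX core. *Sox5* spans 954 kb on chromosome 6, from 143776945 to 144730497 on the minus strand. Its earliest-listed SOX11 peak, number 4461, from 144619190 to 144619447, lay in an intron, 111 kb downstream of the nearest start, and shared 241 bp with SOX4 peak 2336. Their centres were 58 bp apart. Peak 13335, from 144730587 to 144730844, lay in the promoter at the 5′ end of the gene, 219 bp upstream of the outermost start, with 26 CpG and 2 SOX cores. Peak 8565, from 143970278 to 143970535, held 4 SOX cores, the most of the 33, of which those at 27, 5 and 3 bp lay close to its centre. It was placed in an exon, but only of a transcript annotated as a retained intron. The remaining *Sox5* peaks were numbers 12165, 12927 and 18654, 1 upstream of the gene and the others in introns. *Sox6*, on chromosome 7 from 122614858 to 123182258 and 567 kb long, had 1 SOX11 peak, number 18662, in an intron 90.3 kb downstream of a start, with 2 SOX cores. *Sox13*, on chromosome 1 from 135278880 to 135320954, had peak 17963 in an intron, 4.59 kb upstream of an inner start, and peak 6649, 69.2 kb upstream of the gene. The latter, from 135390001 to 135390258, is the region with 3 cores.

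*Sox9*, of group E, encodes a factor of cartilage, testis and hair follicle stem cells. It is annotated on chromosome 11 from 112643538 to 112649074 on the plus strand. Its 7 SOX11 peaks stood earlier in the list than those of *Sox2*, with a median position of 6940 against 16887.5, and 5 of the 7 were in the first 10635 positions, where none of the 8 at *Sox2* was. Upstream were peaks 12780 at 149 kb and 2017 at 161 kb, and downstream peaks 5289 at 136 kb, 8709 at 168 kb, 11344 at 221 kb, 6940 at 272 kb and 1063 at 321 kb. The outermost peak downstream, from 112966804 to 112967061, was number 1063 of the SOX11 list and lay inside the long non-coding gene *2610035D17Rik*, as did peak 6940. It shared 201 bp with SOX4 peak 975, from 112966861 to 112967200, whose centre was 98 bp away. SOX4 peak 975 was the earliest in its list of the 3 member peaks. SOX11 peak 1063 had none of the 3 cores, although the SOX4 peak had a SOX core and a TEAD core beyond the edge of the SOX11 peak. Of the *Sox9* peaks 3 of 7 held a SOX core and 3 of 7 an AP-1 core, and peaks 2017 and 8709 held both.

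The group F genes *Sox7* and *Sox18* encode factors of endothelial cells. *Sox7* had SOX11 peak 13211, 2.42 kb upstream of its start on chromosome 14, and peak 19998, 37.7 kb upstream in an intron of *Pinx1*, and a SOX core was found in both. At *Sox18* the peak was number 5467, on chromosome 2 from 181414790 to 181415047. It lay 8.57 kb upstream of *Sox18* but 96 bp from a start of *Tcea2*, in whose promoter it was placed, with 23 CpG and none of the 3 cores. *Sox15*, the group G gene, is known from skeletal muscle progenitors and lies in a gene-dense stretch of chromosome 11, where its 3 SOX11 peaks fell within 7.39 kb of its start. Peak 6603 lay in the *Sox15* intron, 921 bp from the start. Peak 4949, 342 bp further on, lay from 69470208 to 69470465 with its centre in an exon of *Mpdu1*. It also overlapped the end of *Sox15*, which is annotated to 69470229. All 258 bases of the peak were in untranslated exon parts of transcripts with a coding sequence, counted over all protein-coding genes. Peak 3624 was in the *Mpdu1* promoter, 66 bp from a start, with 26 CpG. None of the *Sox15* peaks held a SOX core, while peak 4949 held an AP-1 core and peak 6603 a TEAD core. In all, 4 of the 33 SOX11 peaks had the nearest start of a neighbour: *Nrsn2*, *Tcea2* and, for 2 peaks, *Mpdu1*.

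The 3 promoter peaks without a SOX core are shown for contrast with the sequences above, as 100 bases of mm9 near the peak centre that lie outside untranslated exons, on the plus strand with CpG in capitals.
Sox21, peak 18092 (chr14:118636253-118636352): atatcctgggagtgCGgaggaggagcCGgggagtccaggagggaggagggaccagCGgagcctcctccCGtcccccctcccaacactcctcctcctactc
Sox18 and Tcea2, peak 5467 (chr2:181414869-181414968): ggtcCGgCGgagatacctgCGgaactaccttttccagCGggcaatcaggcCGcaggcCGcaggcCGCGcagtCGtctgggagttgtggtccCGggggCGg
Sox15 and Mpdu1, peak 3624 (chr11:69476160-69476259): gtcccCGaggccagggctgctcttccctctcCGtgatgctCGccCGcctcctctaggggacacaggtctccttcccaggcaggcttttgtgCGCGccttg
Together with the *Sox5* promoter peak these are the 4 promoter peaks, and their GC content of 62.4 to 65.5% spans the median of 64.7% for all SOX11 peaks in promoters. The other 29 peaks had a median of 50.8% GC, against 49.6% for all SOX11 peaks outside promoters.

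The position of a peak in the SOX11 list was used as the only ordering the list gives. In the first 2127 positions, 62.0% of all SOX11 peaks overlapped a SOX4 peak and 89.3% had a SOX core, and in the last 2127 the shares were 2.02% and 53.7%. The share with a SOX core did not fall steadily, since it was lowest, at 46.8%, in positions 10636 to 12762. The 33 member peaks had a median position of 12780, against 10635.5 for the middle of the list. With the gene body and 10 kb alone the median was 10223, which is before the middle. Of the 33 peaks, 14 were in the first 10635 positions, which is 42.4% (interval 25.5 to 60.8%), an interval that includes an even division of the list. The first 2127 positions held 3 of them, *Sox12* peak 659 and *Sox9* peaks 1063 and 2017. The 3 *Sox15* peaks and the *Sox18* peak stood at 6603 or earlier, and those of *Sox2*, *Sox6*, *Sox7* and *Sox21* stood at 13211 or later.

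**Figure D3:**
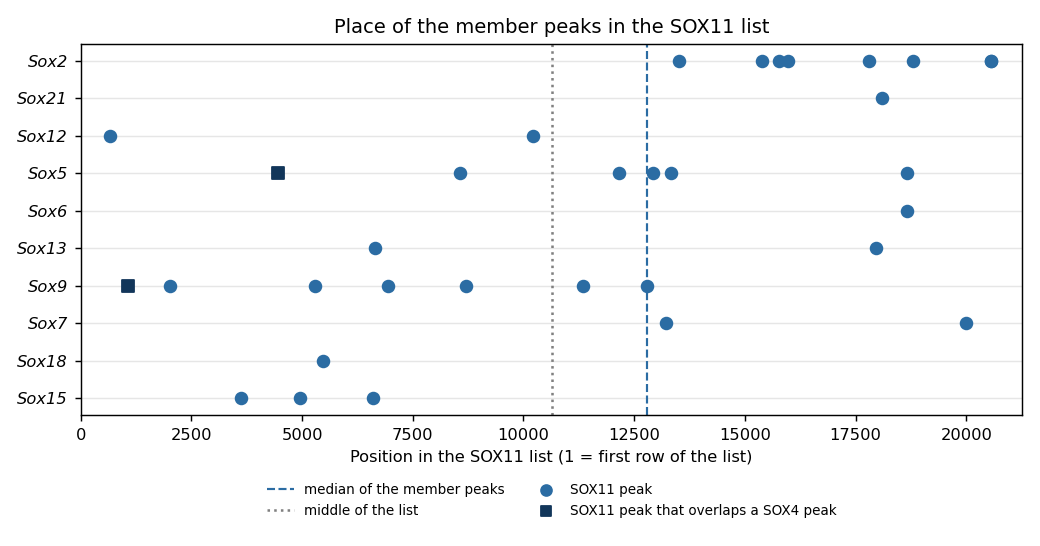
Position of the 33 SOX11 peaks in the SOX11 list (x axis, from 1 at its start) for each of the 10 genes (y axis). Squares mark the 2 peaks that overlap a SOX4 peak, at 1063 and 4461; the dashed line is the median of 12780 and the dotted line the middle of the list.

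At these genes 2 of the 33 SOX11 peaks overlapped a SOX4 peak by at least 1 bp, which is 6.06% (interval 0.743 to 20.2%), against 11.9% of all SOX11 peaks, a share inside the interval. The shared regions are the *Sox9* peak 321 kb downstream and the *Sox5* intron peak. In the SOX4 list these peaks and the one at *Sox2* stood at 975, 2336 and 2474 of 2669, so *Sox5* and *Sox2* lay late in that list.

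Peaks were placed by their centres. Promoters (the 1 kb before a start and the 100 bp after it) held 4 of the 33 member peaks, which is 12.1% (interval 3.40 to 28.2%), against 23.3% of all SOX11 peaks. The promoter belonged to the member itself for *Sox5* and *Sox21*. Exons held 2 peaks, or 6.06%, against 3.33% of all SOX11 peaks, and introns 7, or 21.2% (interval 8.98 to 38.9%), against 33.4%. The other 20 lay between protein-coding genes, which is 60.6% (interval 42.1 to 77.1%), against 40.0%. Of these 20 peaks 15 were those of *Sox2* and *Sox9*, all taken by the nearest start alone. The parts that the rule and the wide stretches around these genes have in the share were not tested, so it is a description only.

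A SOX core was found in 20 of the 33 SOX11 peaks, or 60.6% (interval 42.1 to 77.1%), against 58.5% of all SOX11 peaks and 32.2% of sequences of the same width shifted 2 kb downstream of them. The interval includes the share of the whole list and leaves out that of the shifted sequences. Outside promoters the core was in 19 of 29 member peaks, or 65.5%, against 64.7% of all SOX11 peaks there, and in promoters in 1 of 4, against 38.1%. At least 2 cores were found in 7 of the 33 peaks, or 21.2%, against 16.6% of all. The form CATTGT was in 15 member peaks and CTTTGT in 10, some of which held both. In peaks with a core, the one nearest to the centre was a median of 27 bp away, against 18 bp in all SOX11 peaks with a core. *Sox5* and *Sox2*, with 5 of 6 and 6 of 8 SOX11 peaks, and *Sox6*, *Sox7* and *Sox13*, with all of theirs, make up most of the count, and *Sox15*, *Sox18* and *Sox21* had no core in any.

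**Figure D4:**
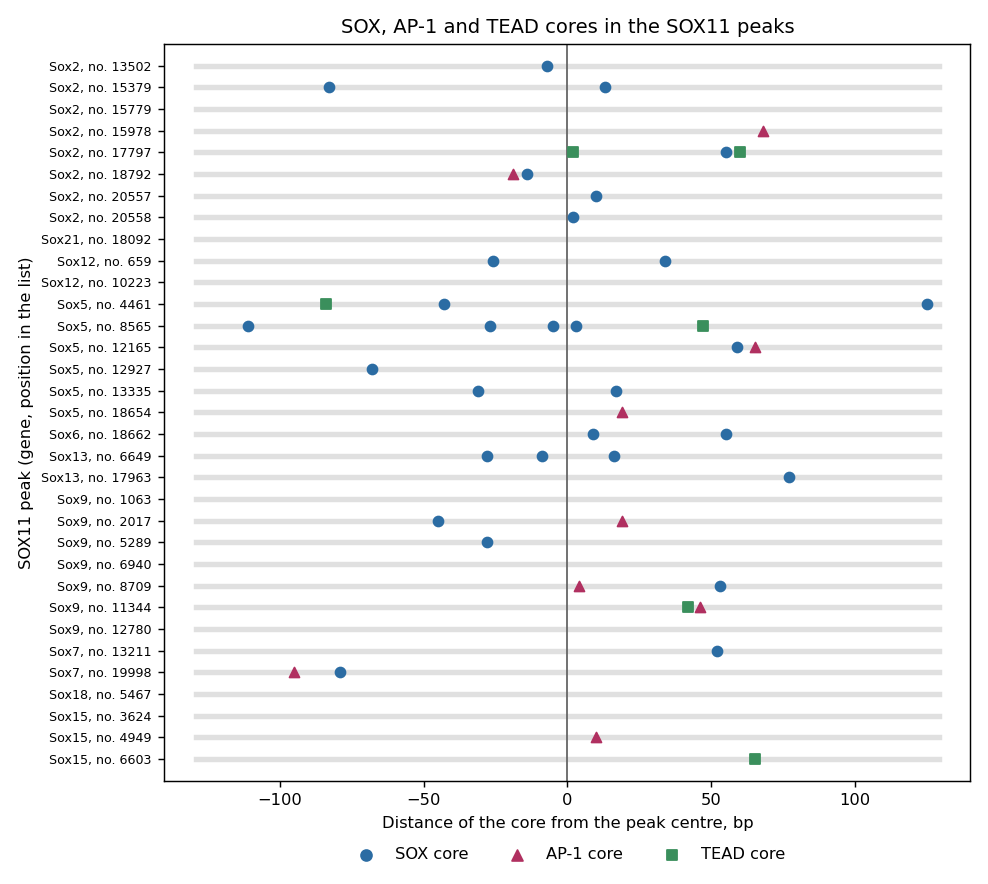
Distance of each SOX, AP-1 and TEAD core from the centre of its SOX11 peak, in bp (x axis), with 1 row for each of the 33 peaks (y axis, gene and position in the list) and a grey bar for the extent of the peak. SOX cores are seen in 20 rows, and 8 rows have no core of any kind.

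AP-1, the dimer of FOS and JUN proteins, is known for its activation in wounded epidermis, and TEAD proteins are the DNA-binding partners of YAP. The AP-1 core, TGAGTCA or TGACTCA, which are each other's reverse complement, was found in 9 of the 33 SOX11 peaks, or 27.3% (interval 13.3 to 45.5%), against 28.5% of all SOX11 peaks and 4.59% of the shifted sequences. The TEAD core GGAATG, searched on both strands, was found in 5, or 15.2% (interval 5.11 to 31.9%), against 22.8% of all and 13.4% of the shifted sequences. The AP-1 share was thus above that of the shifted sequences, while the TEAD interval includes both. SOX and AP-1 cores were both present in 5 peaks, or 15.2%, against 17.2% of all SOX11 peaks. In 3 of these 5 they were at most 10 bp apart (60.0%, interval 14.7 to 94.7%), against 14.1% of all SOX11 peaks with both cores. This limit was chosen after the gaps were seen, so nothing is read from the difference. The 3 peaks are shown with both cores in capitals, on the plus strand of mm9 and with 25 bases to each side or up to the edge of the peak.
Sox2, peak 18792 (chr3:34394691-34394751): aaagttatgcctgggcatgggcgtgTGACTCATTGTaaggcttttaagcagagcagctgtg
Sox5, peak 12165 (chr6:144851332-144851394): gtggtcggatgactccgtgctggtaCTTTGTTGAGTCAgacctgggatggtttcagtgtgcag
Sox7, peak 19998 (chr14:64524642-64524713): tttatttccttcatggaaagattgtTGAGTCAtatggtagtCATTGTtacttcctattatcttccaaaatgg
In the *Sox2* peak the cores share 2 bases, in the *Sox5* peak they follow each other with no base between them, and in the *Sox7* peak 9 bases lie between. The others are the *Sox9* peaks 2017 and 8709, with 58 and 42 bases between the cores. None of the 3 cores was found in 8 of the 33 peaks, or 24.2%, against 24.1% of all SOX11 peaks. A core is a match of letters, not evidence of binding by that factor.

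**Figure D5:**
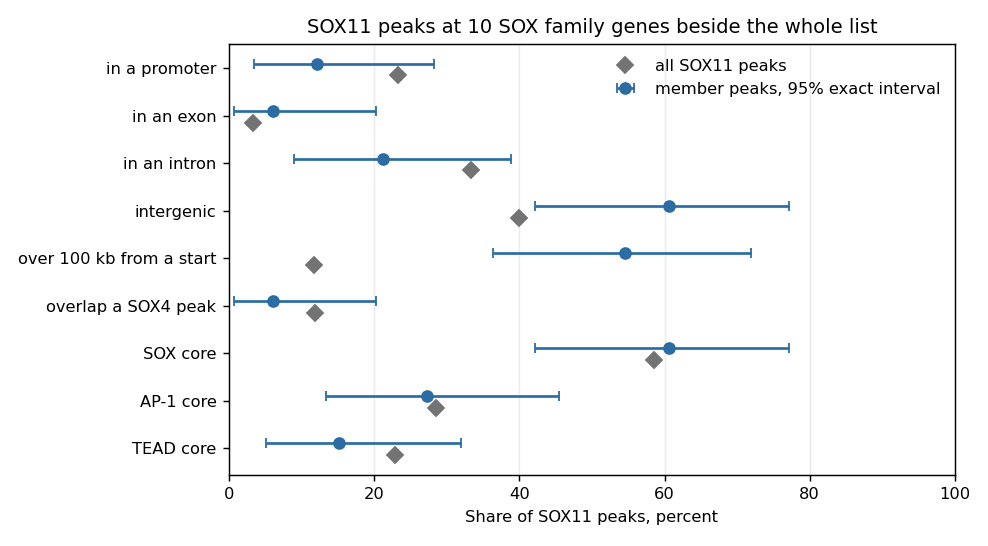
Share of the 33 SOX11 peaks with each property (x axis, percent, circles with exact 95% intervals) beside the share of all 21270 SOX11 peaks (diamonds). For the overlap and the SOX, AP-1 and TEAD cores, which the rule did not use, each diamond lies within the interval, while the place and distance of the peaks depend on the rule.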

How the data were processed

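By the authors' account, the lists are HOMER transcription factor peaks outside the mm9 blacklist (bedtools). They rest on single-end Bowtie2 alignments to mm9, filtered for quality and, with Picard, for duplicates. Versions are not given in the sources used here. What the authors deposited for a peak are its start and end coordinates, with 0-based starts that are printed here from 1.

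Genes came from the GENCODE M1 annotation of NCBIM37, the same build as mm9, restricted to protein-coding genes with all their transcripts. Members were compared by gene name. Overlap was at least 1 bp. Motifs were searched without mismatches. Python 3.11.15, numpy 2.4.6, scipy 1.17.1, matplotlib 3.10.9 and samtools 1.23.1 were used. Overlap and motif search were tested on simulated data. Nearest starts, gene bodies with their flanks and promoter placement were tested at random positions against a direct search of the annotation. The list of members and the gene lists were chosen with earlier results of these data known. Named genes are the members, the other family genes, and genes at or nearest to a member peak. No test was made, because the replicates of each factor were merged. The alternatives tried changed the rule, the transcripts, the extent of promoters, the overlap, the motifs and the part of each list used.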

Additional observations from a re-analysis of the deposited data

How the results depend on the processing

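No paired analysis was possible because each list merges both replicates of its factor, and for the same reason no replicate could be left out. The 28 results had 57 alternatives, 13 of them chosen after seeing the data. 40 stayed within 1.5 times the count or within the interval of the value.

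The 36 peaks at the 10 genes became 16 with the gene body and 10 kb alone, 18 with nearest starts within 100 kb, 18 with the starts of all annotated transcripts and 17 with the first 10635 SOX11 peaks. All peaks of these smaller sets were among the 36. With the gene body and 10 kb alone, *Sox2* and *Sox9* had 0 peaks and *Sox7* and *Sox13* had 1 each, and 1 gene had a SOX4 peak, as with starts within 100 kb (*Sox5* each time) and in the earlier part of the SOX4 list (*Sox9*). The SOX4 peak of *Sox5* lay 111 kb from the nearest start, and was kept with starts within 100 kb because it lay in the gene body. A SOX11 peak was listed at 6 genes in the first 10635 positions and at 2 genes, *Sox9* and *Sox12*, in the first 2669. The shares of all gene names in these parts of the list were not counted, so nothing is read from these numbers. The SOX core was in 13 of the 33 SOX11 peaks within 50 bp of the centre and in 4 as a longer form followed by TC or TT, and AP-1 with 1 mismatch was in 22. For members these are 39.4%, 12.1% and 66.7%, against 45.6%, 19.6% and 66.9% of all SOX11 peaks, so the SOX share of members was below that of the list under both alternatives and above it in the main search. The AP-1 core was within 50 bp of the centre in 6 member peaks, or 18.2%, against 14.9% of all SOX11 peaks. Its share was thus above that of the list there and below it in the main search. With the starts of protein-coding transcripts only, the *Sox5* density was 1.88 in place of 4.44 per Mb, and its interval no longer included that of the genome. The *Sox6* density became 9 per Mb in a window of 500 kb to each side of its outermost start. The 33 peaks are few, so shares could not be told from the whole list unless they differed greatly.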
